A study of Mus musculus with 10 samples.

Results

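The Wnt/beta-catenin response was followed through 10 genes: 5 targets of beta-catenin (Axin2, Sp5, T, Nkd1 and Dkk1), the 4 TCF/LEF factors (Tcf7, Lef1, Tcf7l1 and Tcf7l2) and Ctnnb1, which encodes beta-catenin. On GRCm38/mm10, the genes for which no promoter is shown lie at chr11:52252371-52283014 (Tcf7, minus strand), chr6:72626378-72789254 (Tcf7l1, minus strand), chr19:55741820-55933654 (Tcf7l2, plus strand), chr9:120929216-120960507 (Ctnnb1, plus strand) and chr8:88521354-88594884 (Nkd1, plus strand). All 10 were taken from a list of gene symbols, and each was found once, by its Ensembl identifier, among the 31053 genes counted. The cells were mouse embryonic stem (ES) cells of the E14 line, stably transfected with a construct for Esrrb, a nuclear receptor of the naive state, that doxycycline (DOX) switches on. RNA was counted by 3′ sequencing, in which reads mark the ends of transcripts. All 3 groups carried the construct: cells 96 h after removal of 2iL in N2B27 medium with DOX (3 libraries), cells at the same time without DOX (3 libraries), and cells kept without DOX in N2B27 with 2iL (4 libraries). 2iL combines LIF, a cytokine, with CHIR99021 at 3 µM, which inhibits GSK3 and so stabilises beta-catenin, and PD0325901 at 1 µM, which inhibits MEK. Cells of both 96 h groups were plated in 2iL and moved to N2B27 the next day. DOX was not given to a 2iL culture, and every culture carried the construct.

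In the canonical Wnt pathway, a destruction complex that contains Axin, Apc and GSK3 marks beta-catenin for degradation. Wnt ligands, or an inhibitor of GSK3 such as CHIR99021, stop this, and beta-catenin then enters the nucleus and binds TCF/LEF factors on its target genes. In mouse ES cells Tcf7l1 acts mainly as a repressor of pluripotency genes, and beta-catenin relieves that repression. Axin2, Nkd1 and Dkk1 encode inhibitors of the pathway, so their induction is a feedback.

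Reads in genes per library ran from 1253620 to 4715450, and 12659 to 14723 genes had a read. The library with the fewest reads, 96 h DOX exp1_2 (experiment 1, library 2), stood apart. It had 14.8% of its reads in Gm42418, a locus with ribosomal RNA sequence, against 3.39% to 6.61% in the other 9 libraries. Its mitochondrial share was 3.10%, against 0.559% to 1.27%, and its summed fibroblast markers (7 genes) reached 1938 CPM (read counts scaled to library size), against 2.00 to 21.2 CPM elsewhere. The titles place the libraries in experiments 1 and 2, and experiment 2 held 1 library in each 96 h group. Nothing says that libraries came from separate cultures, so p-values measure the spread between these libraries, which may be technical. Esrrb itself was at 12.8, 14.7 and 27.0 CPM in 96 h DOX libraries, at 23.8, 13.6 and 32.0 CPM in 96 h libraries without DOX, and at 378, 229, 331 and 323 CPM in 2iL. These 3′ reads count the construct only if it carries the 3′ end of the gene, so they may not test its induction. DOX relative to no DOX gave a log2 change of -0.32 ± 0.33 for Esrrb (adjusted p = 0.704, edgeR). Summed markers of naive ES cells were 367 to 438 CPM in 96 h DOX, 96.0 to 144 CPM in 96 h without DOX and 1904 to 2276 CPM in 2iL. In bulk RNA, fewer cells of a type and less RNA per cell cannot be told apart.

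Promoter sequences are shown for the 4 genes that changed in the tests below and for T, which differed between the experiments. Each is the 300 bases from 250 before to 50 after the annotated start, from RefSeq on GRCm38.p6, written 5′ to 3′ on the strand of the gene. The windows are chr2:70474673-70474972 (plus strand) for Sp5, chr19:30549447-30549746 (minus strand) for Dkk1, chr17:8434173-8434472 (plus strand) for T, chr11:108920099-108920398 (plus strand) for Axin2 and chr3:131110047-131110346 (plus strand) for Lef1, the first of its 4 annotated starts. Capitals mark the TCF/LEF motif, searched on both strands in 4 forms. These were CTTTGAA and CTTTGAT, and with T in place of the first A also CTTTGTA and CTTTGTT. The forms do not overlap one another.
Sp5: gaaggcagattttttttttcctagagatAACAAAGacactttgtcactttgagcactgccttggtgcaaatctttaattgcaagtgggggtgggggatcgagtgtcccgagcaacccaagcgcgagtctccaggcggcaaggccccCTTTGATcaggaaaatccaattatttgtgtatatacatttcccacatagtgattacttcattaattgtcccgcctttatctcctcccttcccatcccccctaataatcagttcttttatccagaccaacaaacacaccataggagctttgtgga
Dkk1: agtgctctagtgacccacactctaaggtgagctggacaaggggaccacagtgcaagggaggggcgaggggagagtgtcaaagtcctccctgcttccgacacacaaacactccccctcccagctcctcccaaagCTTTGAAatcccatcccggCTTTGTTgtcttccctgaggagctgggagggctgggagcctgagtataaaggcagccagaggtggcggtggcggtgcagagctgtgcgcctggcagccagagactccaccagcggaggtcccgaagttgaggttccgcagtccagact
T: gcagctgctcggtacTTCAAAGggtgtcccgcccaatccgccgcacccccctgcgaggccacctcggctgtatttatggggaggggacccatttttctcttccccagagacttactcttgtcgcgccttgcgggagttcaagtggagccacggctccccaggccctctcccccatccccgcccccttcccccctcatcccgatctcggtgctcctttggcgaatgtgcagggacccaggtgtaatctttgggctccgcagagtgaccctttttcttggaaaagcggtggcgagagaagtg
Axin2: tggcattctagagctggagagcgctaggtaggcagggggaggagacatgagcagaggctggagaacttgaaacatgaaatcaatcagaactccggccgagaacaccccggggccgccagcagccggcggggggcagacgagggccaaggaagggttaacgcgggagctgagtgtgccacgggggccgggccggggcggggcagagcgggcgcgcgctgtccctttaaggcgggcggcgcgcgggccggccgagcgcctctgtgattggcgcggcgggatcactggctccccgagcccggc
Lef1: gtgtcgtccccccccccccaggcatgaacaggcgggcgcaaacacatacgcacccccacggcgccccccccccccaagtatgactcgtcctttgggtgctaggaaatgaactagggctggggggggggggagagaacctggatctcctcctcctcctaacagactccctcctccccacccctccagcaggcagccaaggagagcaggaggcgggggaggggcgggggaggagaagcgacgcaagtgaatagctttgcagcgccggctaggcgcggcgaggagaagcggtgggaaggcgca

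At least 1 of these forms was in 16.9% of all 32851 promoter windows of the same length. Sp5 had CTTTGTT on the minus strand at -222 to -216 from the start and CTTTGAT on the plus strand at -104 to -98. Dkk1 had CTTTGAA at -117 to -111 and CTTTGTT at -98 to -92, both on its own strand. T had CTTTGAA on the opposite strand at -235 to -229. Axin2 had no match in its window, nor did the first window of Lef1, although the window of another annotated start, number 4, had CTTTGTA. The nuclear receptor motif AAGGTCA, bound by Esrrb, was in 4.72% of windows and, among the 10 genes, in the second window of Tcf7. A match of letters is a description of the window and does not show that a factor bound there.

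Removal of 2iL for 96 h without DOX changed 4 of the 10 genes: Axin2, Sp5 and Dkk1 fell, and Lef1 rose. Over all 11215 genes tested, 20.4% passed the same threshold, which was an adjusted p below 0.05 by the quasi-likelihood test of edgeR, adjusted by Benjamini-Hochberg over all genes tested. Genes that rose made up 11.5% and genes that fell 8.90%. The other 6 genes did not pass the test. The median log2 change of the 10 genes was -0.36, against 0.00 for all genes. Levels are CPM, scaled by TMM over the tested genes, and errors of log2 changes are standard errors (SE). Where 3 or 4 values are listed, they run exp1_1, exp1_2, exp2_1 for 96 h DOX, exp1_1, exp1_2, exp2_2 for 96 h without DOX, and exp1_1, exp1_2, exp2_1, exp2_2 for 2iL.

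**Figure D1:**
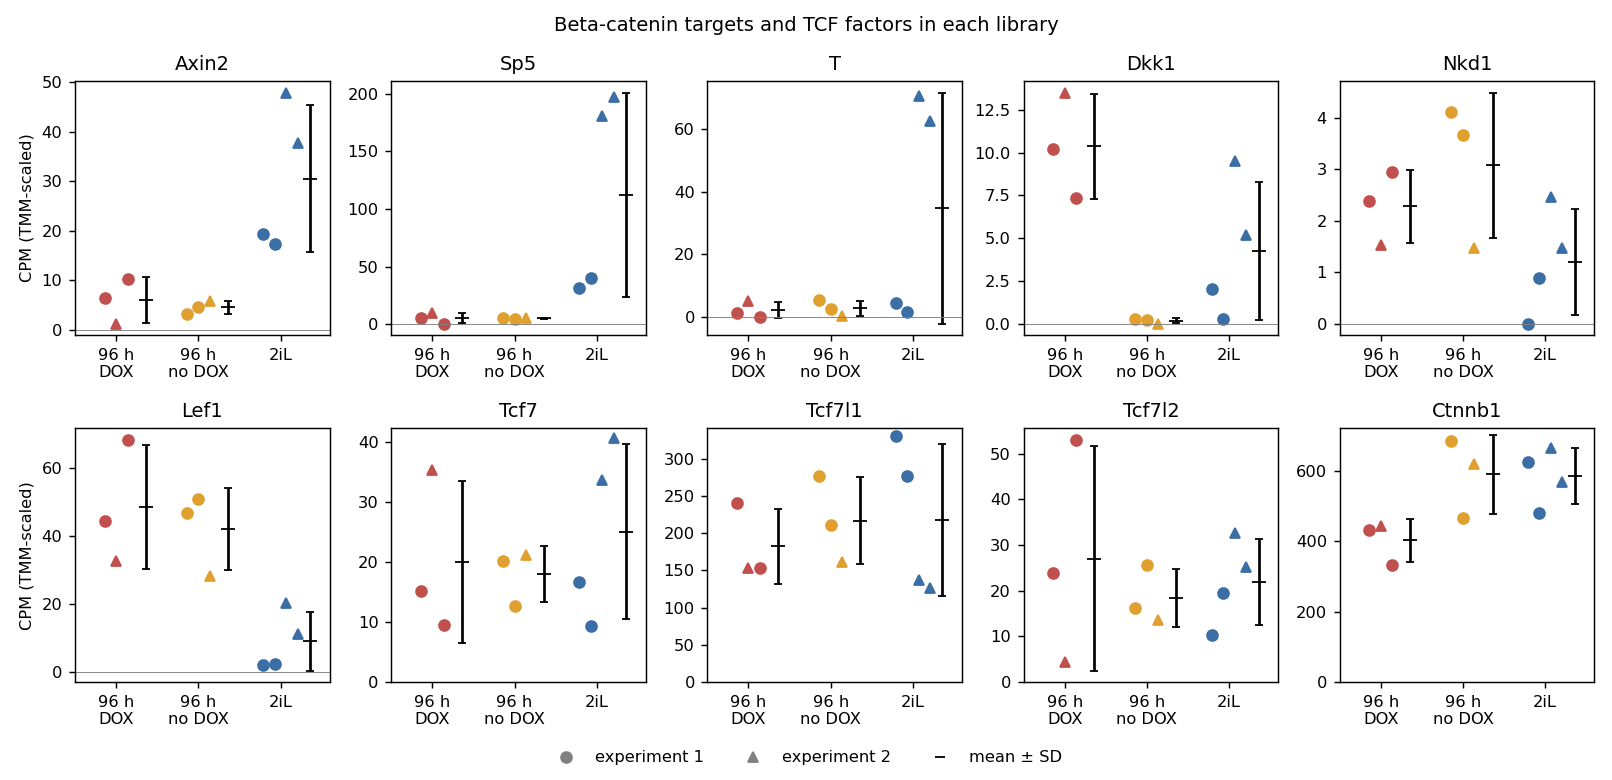
Level of each of the 10 genes in every library, in TMM-scaled CPM on the vertical axis, with 96 h DOX, 96 h without DOX and 2iL from left to right; circles are experiment 1, triangles experiment 2, and bars the mean ± SD. Sp5 stood between 0.737 and 9.83 CPM at 96 h and between 31.6 and 197 CPM in 2iL, while Dkk1 was at or below 0.294 CPM in the 96 h libraries without DOX.

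Sp5 encodes a zinc finger factor that is a direct target of beta-catenin. It was at 5.94, 0.737 and 9.83 CPM in 96 h DOX, at 5.58, 4.53 and 5.58 CPM in 96 h without DOX, and at 31.6, 40.1, 181 and 197 CPM in 2iL. All 6 libraries at 96 h lay below all 4 in 2iL, and the 2iL libraries of experiment 2 lay far above those of experiment 1. Without DOX, Sp5 fell by 4.42 ± 0.73 on the log2 scale relative to 2iL (adjusted p = 0.000681, edgeR). The difference with DOX relative to 2iL was -4.18 ± 0.74 (adjusted p = 0.00154, edgeR), and DOX relative to no DOX gave 0.24 ± 0.80 (95% interval -1.48 to 1.97).

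Axin2 encodes a scaffold of the destruction complex and is widely used as a readout of the pathway. Its level was 6.42, 10.3 and 1.23 CPM in 96 h DOX, 3.23, 4.53 and 5.88 CPM in 96 h without DOX, and 19.3, 17.3, 47.9 and 37.7 CPM in 2iL. Again each 96 h library lay below each 2iL library, and the highest 96 h value came from the DOX library that stood apart. Without DOX it fell by 2.74 ± 0.54 on the log2 scale relative to 2iL (adjusted p = 0.000791, edgeR), and with DOX the change was -2.46 ± 0.55 (adjusted p = 0.00335, edgeR). Within experiment 1 alone the fall with DOX was -1.16 (adjusted p = 0.239, edgeR) and no longer passed.

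T (brachyury) encodes the T-box factor that marks the primitive streak. It was at 1.19, 0 and 4.92 CPM in 96 h DOX, where the count of 0 in exp1_2 allows up to 2.21 CPM, and at 5.29, 2.37 and 0.294 CPM in 96 h without DOX. In 2iL it was at 4.33 and 1.46 CPM in experiment 1 but at 70.6 and 62.5 CPM in experiment 2. The 2iL libraries of experiment 1 lay within the range of the 96 h libraries, and those of experiment 2 lay far outside it. With both experiments pooled, the changes relative to 2iL were -3.70 ± 1.44 without DOX (adjusted p = 0.116, edgeR) and -3.89 ± 1.51 with DOX (adjusted p = 0.123, edgeR), and neither passed. T passed in some alternatives: without DOX in a fit of only the compared groups (adjusted p = 0.0449, edgeR) and without 2iL exp1_2 (0.00974) or exp1_1 (0.0478), and with DOX without 2iL exp1_2 (0.0128), by DESeq2 (0.0367) and with experiment and library number as a block (0.0458).

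Nkd1 encodes an inhibitor that binds Dishevelled. It had 0 to 17 reads in any library. Levels were 1.54 to 2.95 CPM in 96 h DOX, 1.47 to 4.11 CPM in 96 h without DOX and 0 to 2.46 CPM in 2iL, where the library with 0 reads allows up to 0.999 CPM. The ranges overlapped in every pair of groups, and no comparison passed (adjusted p 0.350 to 0.869, edgeR).

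Dkk1, a secreted inhibitor that binds the coreceptors Lrp5 and Lrp6, was the single gene of the 10 that changed between 96 h with DOX and 96 h without DOX, where it rose. Over all genes, 3.10% passed in that comparison with 2.16% higher and 0.945% lower. It had 43, 10 and 44 reads (10.2, 7.37 and 13.5 CPM) in 96 h DOX, against 1, 1 and 0 reads (0.294, 0.216 and 0 CPM) in 96 h without DOX, where the 0 allows up to 0.881 CPM. In 2iL it had 6, 1, 31 and 14 reads (2.00, 0.292, 9.52 and 5.18 CPM). The DOX libraries all lay above the libraries without DOX, in both experiments, while the 2iL libraries ran from the level without DOX to the level with DOX.

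Because so few reads stood behind the group without DOX, Dkk1 is given as a ratio of reads with an exact 95% interval for counting error. That ratio was 62.9 for 96 h DOX over 96 h without DOX (17.0 to 527; adjusted p = 0.00542, edgeR). Within experiment 1 it was 38.3 (10.1 to 324), and within experiment 2 Dkk1 was at least 15.3-fold higher with DOX, from a floor of 3 reads over the library without DOX. Relative to 2iL, Dkk1 without DOX was 24.0-fold lower (6.33 to 204; adjusted p = 0.00628, edgeR). In a fit of only these groups Dkk1 did not pass the filter on low counts and had no test, so its test in the fit of all 10 libraries was reached through the DOX libraries. That fall was 4.38-fold in experiment 1 (0.835 to 43.2), an interval that includes no change, and at least 8.57-fold in experiment 2. With DOX the ratio to 2iL was 2.62 (1.85 to 3.74), which did not pass (adjusted p = 0.247, edgeR).

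The rise of Dkk1 with DOX passed in all 10 fits that each left out 1 library (adjusted p 0.00154 to 0.0318, edgeR). It missed the threshold within experiment 1 alone (adjusted p = 0.0661, edgeR), a fit with 2 libraries in each group. Dkk1 passed the filter on low counts through the DOX libraries and, where included, 2iL of experiment 2, not through the group without DOX. These tests therefore followed a selection on high values, and their passing does not make the rise more certain. Markers of extraembryonic endoderm were also higher with DOX: their sum over 6 genes was 102, 220 and 105 CPM in 96 h DOX, 3.53 to 5.29 CPM in 96 h without DOX and 1.11 to 5.33 CPM in 2iL. Within 96 h DOX that sum was highest in exp1_2, the library with the lowest level of Dkk1 (7.37 CPM). Sox7, one of those markers, had no read in either group without DOX. Summed naive markers were higher with DOX as well (367 to 438 CPM, against 96.0 to 144 CPM without DOX). The part of endoderm cells, or of any other cells, in the level of Dkk1 was not tested.

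**Figure D2:**
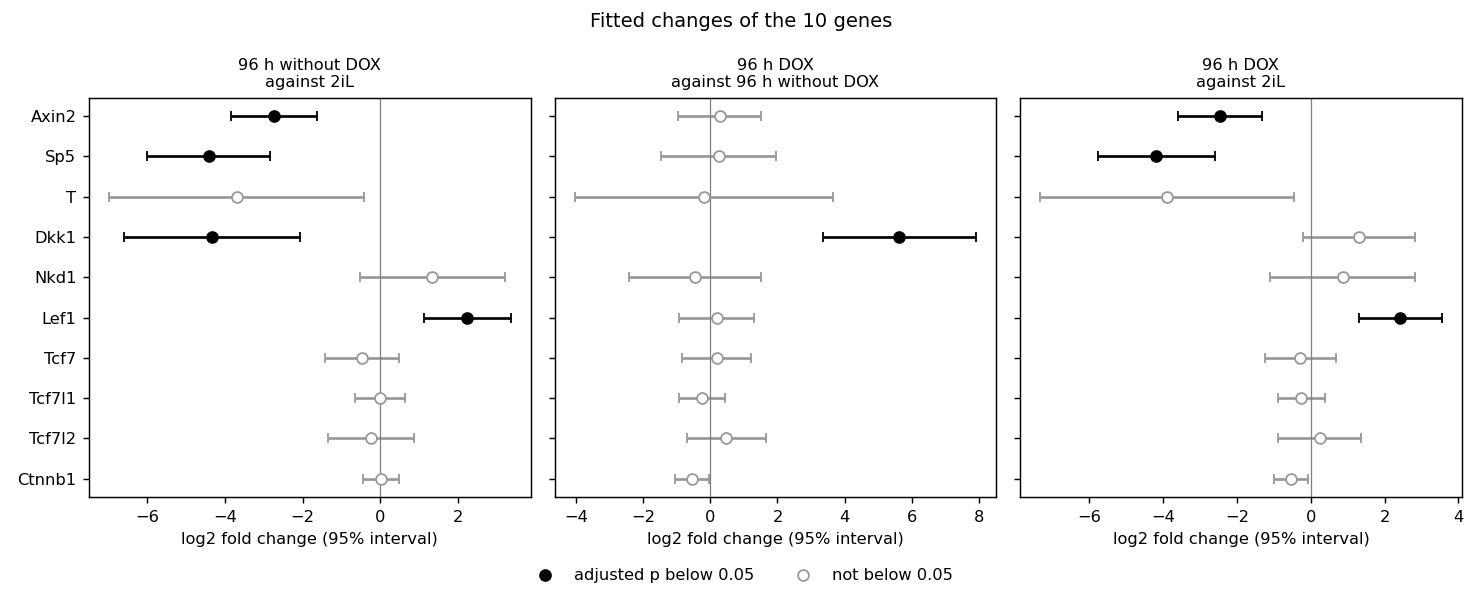
Fitted log2 fold changes of the 10 genes with 95% intervals, for 96 h without DOX against 2iL, 96 h DOX against 96 h without DOX, and 96 h DOX against 2iL; filled points have an adjusted p below 0.05 in edgeR. Sp5 and Axin2 lay below 0 and Lef1 above 0 in both comparisons with 2iL; the fitted value of Dkk1 without DOX rests on 2 reads in that group.

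Among the TCF/LEF factors, Lef1 alone passed a test. Lef1 is a factor that mostly activates with beta-catenin and is itself a target of the pathway. It was at 44.4, 68.5 and 32.6 CPM in 96 h DOX, at 47.0, 51.1 and 28.2 CPM in 96 h without DOX, and at 2.00, 2.34, 20.3 and 11.1 CPM in 2iL. Each 96 h library lay above each 2iL library, and the gap was narrow in experiment 2. Lef1 rose by 2.24 ± 0.53 on the log2 scale without DOX (adjusted p = 0.00476, edgeR) and by 2.42 ± 0.54 with DOX (adjusted p = 0.00391, edgeR), both relative to 2iL. DOX relative to no DOX gave 0.18 ± 0.54 (95% interval -0.94 to 1.31). The direction of Lef1 was thus opposite to that of Axin2, Sp5 and, without DOX, Dkk1.

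Tcf7l1 was at 241, 153 and 153 CPM in 96 h DOX, at 277, 211 and 161 CPM in 96 h without DOX, and at 330.4, 276, 138 and 126 CPM in 2iL. Values split by experiment in 2iL, with both libraries of experiment 1 above both of experiment 2, and the groups overlapped. The difference without DOX relative to 2iL was -0.01 ± 0.31 (95% interval -0.64 to 0.63), and with DOX relative to no DOX it was -0.24 ± 0.33 (95% interval -0.93 to 0.44). Tcf7l1 is the factor that represses in ES cells, and changes within those intervals were not detectable here.

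Tcf7, an activating factor with short forms that lack the beta-catenin binding region, was at 15.2, 9.58 and 35.3 CPM in 96 h DOX, at 20.3, 12.7 and 21.2 CPM in 96 h without DOX, and at 16.7, 9.36, 33.8 and 40.7 CPM in 2iL. Its highest libraries were those of experiment 2 in each group. Its 3′ end overlaps the lincRNA Gm26551 on the same strand, so reads there may belong to either gene. No comparison passed (adjusted p 0.548 to 0.900, edgeR).

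Tcf7l2, a factor that activates or represses depending on its isoform, was at 23.8, 53.0 and 4.30 CPM in 96 h DOX, at 16.1, 25.7 and 13.5 CPM in 96 h without DOX, and at 10.3, 19.6, 32.6 and 25.1 CPM in 2iL. The 3 DOX libraries held both the lowest and the highest value of all 10, the highest in the library that stood apart. No comparison passed (adjusted p 0.752 to 0.818, edgeR).

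The makeup of TCF/LEF reads was also described as the share of each factor in the reads of all 4. Such shares depend on how well each 3′ end was captured and are compared between libraries, not between factors. Lef1 took 17.4% ± 5.8 (SD, n = 3) with DOX, 14.2% ± 2.4 (SD, n = 3) without DOX and 3.95% ± 4.08 (SD, n = 4) in 2iL. With DOX, Lef1 took 13.7% in exp1_1 and 14.5% in exp2_1 but 24.1% in exp1_2, the library that stood apart. In 2iL its share was 0.556% and 0.760% in experiment 1, against 9.04% and 5.45% in experiment 2. Tcf7l1 took 53.9% to 74.3% with DOX (lowest in exp1_2), 70.3% to 76.9% without DOX, and 91.9%, 89.8%, 61.4% and 62.2% in 2iL. The 2iL libraries of the 2 experiments thus lay on either side of the 96 h libraries without DOX.

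**Figure D3:**
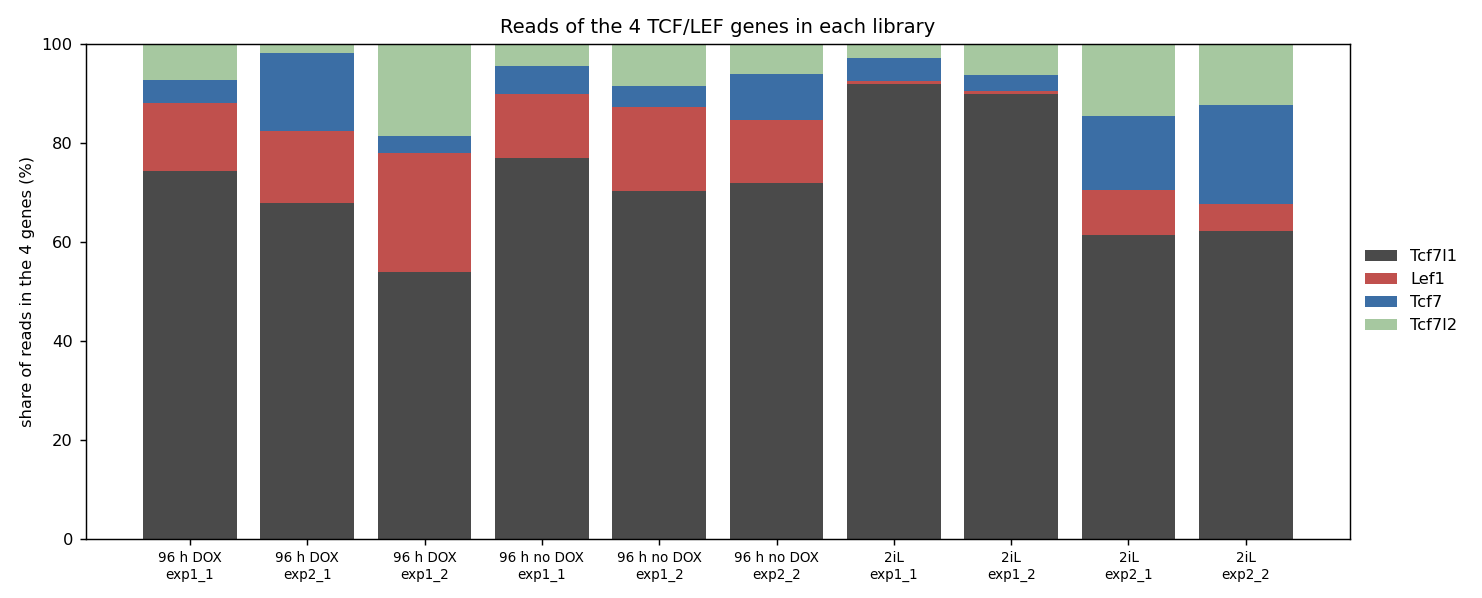
Share of reads of the 4 TCF/LEF genes held by each factor, in percent, in each of the 10 libraries, ordered 96 h DOX, 96 h without DOX and 2iL. Tcf7l1 held 91.9% and 89.8% in 2iL of experiment 1 but 61.4% and 62.2% in 2iL of experiment 2, and the Lef1 band was wider in every 96 h library than in any 2iL library.

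Ctnnb1 encodes beta-catenin, whose amount is set largely by protein stability, which RNA does not measure. It was at 431, 333 and 445 CPM in 96 h DOX, at 686, 467 and 621 CPM in 96 h without DOX, and at 626, 482, 666 and 568 CPM in 2iL. The DOX libraries lay below all others, and the other groups overlapped. DOX relative to no DOX gave -0.55 ± 0.24 (adjusted p = 0.267, edgeR) and DOX relative to 2iL gave -0.54 ± 0.23 (adjusted p = 0.113, edgeR), so neither difference passed. Without DOX relative to 2iL the difference was 0.01 ± 0.22 (95% interval -0.45 to 0.48). The 3′ end of Ctnnb1 overlaps Ulk4 on the other strand, and no source used here states whether reads were counted by strand.

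For 96 h DOX against 2iL, 3 of the 10 genes passed (Lef1 rose, Axin2 and Sp5 fell), where 16.7% of all genes passed (9.84% higher and 6.83% lower). The median log2 change of the 10 genes was -0.27, against 0.02 for all genes. Leaving out 96 h DOX exp1_2 left the count of the 10 genes called at 4, 1 and 3 in the comparisons without DOX against 2iL, DOX against no DOX and DOX against 2iL. All 3 comparisons were made on the same 10 libraries, and each pair of comparisons shares a group.

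The experiments were also compared within 2iL, where each held 2 libraries. In experiment 1 relative to experiment 2, T was lower by a log2 difference of -4.53 ± 0.62 (adjusted p = 0.0120, edgeR) and Sp5 by -2.39 ± 0.40 (adjusted p = 0.0396, edgeR). Only 4 genes passed in this comparison, or 0.0357% of those tested, and the other two were Tlx2 and Egr1. Lef1 (-2.84 ± 0.50, adjusted p = 0.0573, edgeR), Axin2 (-1.23 ± 0.43, adjusted p = 0.658, edgeR), Dkk1 (-2.69 ± 0.89, adjusted p = 0.634, edgeR) and Tcf7 (-1.52 ± 0.45, adjusted p = 0.521, edgeR) did not pass. Tcf7l1 had a difference in the other direction (1.20 ± 0.31, adjusted p = 0.402, edgeR), which did not pass either. Without 96 h DOX exp1_1 or exp1_2, Tcf7l1 passed (adjusted p = 0.0332 and adjusted p = 0.0346, edgeR), and so did Lef1 (adjusted p = 0.0114 and adjusted p = 0.0173, edgeR). Lef1 also passed with no filter (adjusted p = 0.000263, edgeR), with a stricter filter (adjusted p = 0.0252, edgeR) and with no scaling beyond library size (adjusted p = 0.0343, edgeR). Over the 8 fits that each left out 1 library, the difference was -3.22 to -2.35 for Lef1 and 1.06 to 1.33 for Tcf7l1. Neither gene passed in all 8 of those fits.

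Leaving out any of the 4 2iL libraries leaves 1 library in an arm, whose spread is then taken from the other groups. The differences were -5.47 to -3.93 for T and -2.57 to -2.24 for Sp5 in those fits, and neither passed (adjusted p 0.0727 to 0.344 for T and 0.278 to 0.685 for Sp5, edgeR). Sp5 also missed the threshold without 96 h without DOX exp1_1 (0.0663) or exp1_2 (0.0565), which change only the shared spread. Summed markers of the primitive streak and mesoderm, over 8 genes that exclude T, were 12.0 and 6.73 CPM in 2iL of experiment 1 and 41.5 and 31.8 CPM in 2iL of experiment 2. Msgn1, one of them, had no read in any library. The labels do not say what differed between the experiments, and the part of streak-like cells in these values was not tested.

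Cdx1 and Cdx2, caudal homeobox genes known as beta-catenin targets, were named after their values were seen. Cdx1 was at 0.666 and 1.75 CPM in 2iL of experiment 1, against 46.4 and 42.1 CPM in 2iL of experiment 2. Cdx2 was at 0.333 and 1.46 CPM in experiment 1, against 13.5 and 20.7 CPM in experiment 2. At 96 h every library had 1.76 CPM or less of either gene. Both were left out of the test by the filter on low counts in the fit of all 10 libraries. Without 96 h DOX exp1_2 the smallest group was smaller, so the filter asked for fewer libraries. Both genes then passed it only through 2iL of experiment 2, where they were high. Their calls as lower in 96 h without DOX than in 2iL followed from that selection and are not support for a fall.

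The change from 2iL to 96 h was therefore also taken within each experiment. For T without DOX relative to 2iL, the log2 change was 0.39 in experiment 1; in experiment 2, where the 96 h library had 1 read, the ratio of reads was 228-fold lower (40.7 to 9021). The difference between the experiments in that change was 8.04 ± 1.30 (adjusted p = 0.0573, edgeR), just above the threshold, and it passed with no filter (5.06e-07) and with a stricter filter (0.0172). Lef1 changed by 4.47 in experiment 1 and 0.84 in experiment 2, with a difference of 3.63 ± 0.72 (adjusted p = 0.268, edgeR). It passed with no filter (adjusted p = 0.00406, edgeR). Sp5 had -2.83 in experiment 1 and -5.07 in experiment 2 (difference 2.24 ± 0.73, adjusted p = 0.514, edgeR), and Axin2 had -2.21 and -2.86. Over all genes 1 gene passed this test of a difference, or 0.00892%, and it was not 1 of the 10.

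With DOX relative to no DOX, Axin2 changed by 1.02 in experiment 1 and by -2.22 in experiment 2, where the single libraries had 4 reads with DOX and 20 reads without. The difference was 3.24 ± 0.99 (adjusted p = 0.857, edgeR) and did not pass. Tcf7l2 had 0.83 in experiment 1 and -1.64 in experiment 2 (difference 2.48 ± 0.90, adjusted p = 0.857, edgeR). Lef1 had 0.19 and 0.21. In edgeR, 0 of 11215 genes passed this test, and 614 had an unadjusted p below 0.05; no other tool was run on it.

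**Figure D4:**
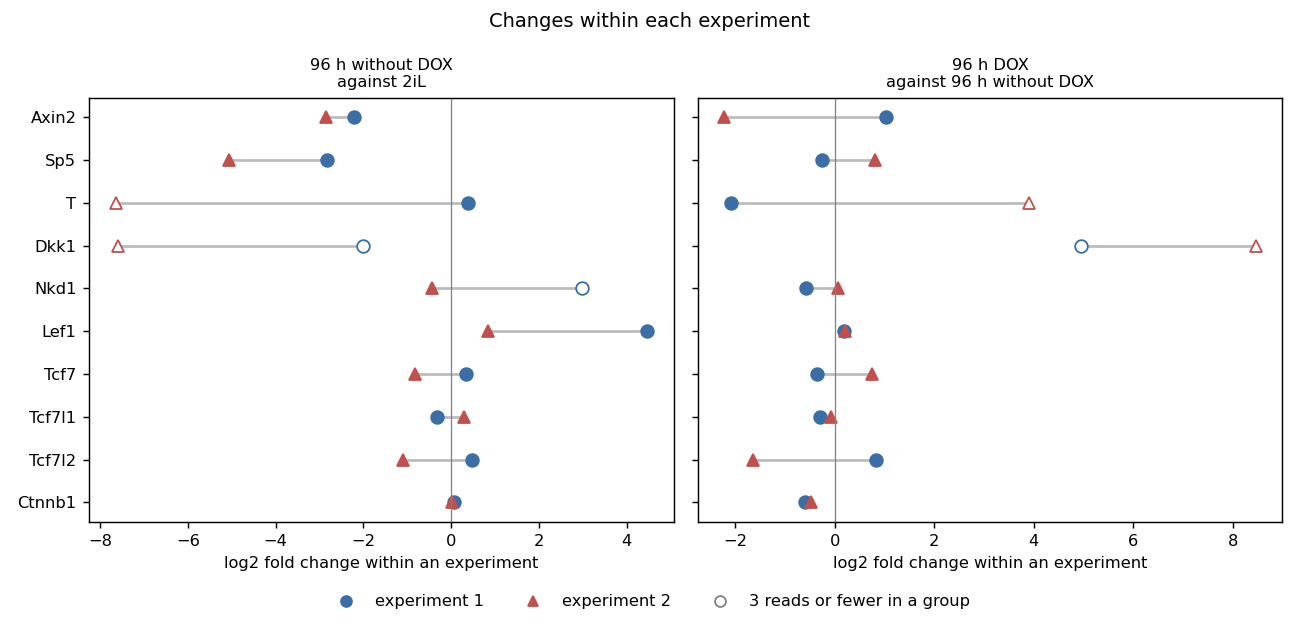
Log2 fold change of each gene within experiment 1 (circles) and experiment 2 (triangles), for 96 h without DOX against 2iL and for 96 h DOX against 96 h without DOX; open symbols have 3 reads or fewer in a group, and their fitted values depend on the prior count. In the first panel Lef1 stood at 4.47 in experiment 1 and 0.84 in experiment 2; in the second Axin2 stood at 1.02 in experiment 1 and -2.22 in experiment 2.

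The other parts of the pathway were described from 10 lists of known genes, with 85 genes tested of 130 in the files. After 2iL removal without DOX, 14 rose and 13 fell (31.8%, against 20.4% of all genes). With DOX relative to no DOX, 8 rose and 4 fell (14.1%, against 3.10%), and relative to 2iL 14 rose and 16 fell (35.3%, against 16.7%). Without 96 h DOX exp1_2 the counts were 6 and 3 for DOX relative to no DOX and 10 and 14 for DOX relative to 2iL, of 90 genes tested. The median log2 changes of the 85 genes were 0.03, -0.03 and 0.02. Genes listed as repressed by Tcf7l1 made up 7 of the 13 that fell without DOX relative to 2iL. They were 4 of the 8 that rose with DOX relative to no DOX. With DOX relative to 2iL they were 6 of the 16 that fell. The lists were chosen with earlier results known, so the shares are not independent of these data.

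**Figure D5:**
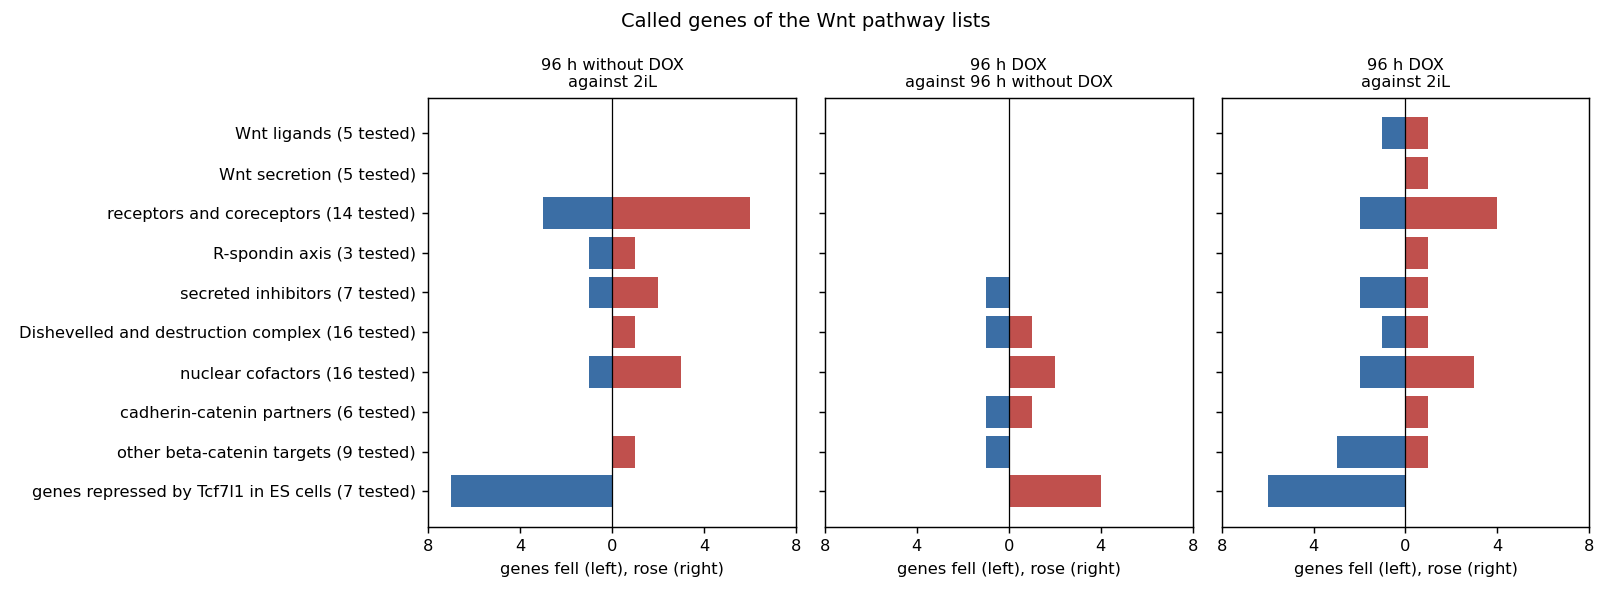
Number of genes of each Wnt pathway list that rose (right) or fell (left) with an adjusted p below 0.05 in edgeR, for the same 3 comparisons. Receptors changed in both directions relative to 2iL, with none called between the 96 h groups. Of the 7 genes repressed by Tcf7l1, 7 fell without DOX and 6 with DOX relative to 2iL, and 4 rose with DOX relative to no DOX.

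Frizzled receptors and their coreceptors, which bind Wnt at the cell surface, changed in both directions: 6 of 14 rose and 3 fell without DOX relative to 2iL, against 11.5% higher and 8.90% lower over all genes. Fzd2 was at 77.1 ± 5.0 CPM without DOX and 7.33 ± 1.06 CPM in 2iL (SD, n = 3 and 4), a rise of 3.39 ± 0.26 on the log2 scale (adjusted p = 1.43e-08, edgeR). Fzd7 rose by 2.40 ± 0.49 and Fzd3 by 2.02 ± 0.50. Fzd5 was at 13.1 ± 1.7 CPM without DOX and 66.5 ± 6.4 CPM in 2iL (SD, n = 3 and 4), with a log2 change of -2.34 ± 0.27 (adjusted p = 2.03e-06, edgeR). Fzd10 (-3.02 ± 0.46) and Ror2 (-1.68 ± 0.53), a receptor tyrosine kinase for Wnt, also fell. The groups overlapped for Ror2, whose log2 change was -0.51 in experiment 1 and -3.43 in experiment 2.

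With DOX relative to 2iL, 4 of 14 receptors rose and 2 fell, against 9.84% higher and 6.83% lower over all genes. Fzd2 was at 54.3 ± 5.7 CPM and Fzd5 at 24.8 ± 3.0 CPM in 96 h DOX (SD, n = 3), both between the level in 96 h without DOX and that in 2iL. Fzd3 was no longer called without 96 h DOX exp1_2. Between DOX and no DOX, 0 of 14 receptors passed in edgeR, 2 had an unadjusted p below 0.05, and DESeq2 called 1.

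Secreted inhibitors and R-spondin genes also moved both ways. Without DOX relative to 2iL, Sfrp2 rose by 3.92 ± 0.68 and Frzb by 2.84 ± 0.70, while Sfrp1 fell by 2.14 ± 0.28 to 44.2 ± 19.1 CPM, against 196 ± 44 CPM in 2iL (SD, n = 3 and 4). These 3 genes encode Frizzled-related proteins that bind Wnt. Rspo1, an R-spondin that strengthens Wnt signals, rose by 2.99 ± 0.61, and Lgr4, a receptor for R-spondins, fell by 1.09 ± 0.37.

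Frzb moved against Dkk1 when DOX was given. It had 1.90, 0 and 0.307 CPM in 96 h DOX, against 16.7, 7.55 and 10.9 CPM in 96 h without DOX, and the groups did not overlap. Frzb fell by 3.63 ± 0.83 on the log2 scale (adjusted p = 0.0165, edgeR), and it was still called without 96 h DOX exp1_2. It had 57, 35 and 37 reads in 96 h without DOX and 8 or fewer in every other library. Frzb thus passed the filter on low counts only through the group where it was high. This fall and its rise relative to 2iL are not independent of that selection.

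Wnt ligands were mostly too low to test: 5 of 19 passed the filter, and none of the 5 passed the test in the comparisons that involve 96 h without DOX. Without DOX against 2iL, edgeR gave 2 of them an unadjusted p below 0.05, and with DOX against no DOX 0; DESeq2 called 0 in both. Wnt5b was at 2.38, 0 and 0.307 CPM in 96 h DOX, against 2.33, 6.14, 24.6 and 25.9 CPM in 2iL, and its log2 change of -3.67 ± 1.02 passed (adjusted p = 0.0170, edgeR). Its groups overlapped, and experiment 2 of 2iL held the high values. In that comparison 1 of the 5 tested ligands fell, which was Wnt5b, and 1 rose. The ligand that rose was Wnt5a, at 3.09 to 15.5 CPM in 96 h DOX and 0.292 to 1.48 CPM in 2iL. The highest value of Wnt5a came from 96 h DOX exp1_2, and its call was lost without that library. Wls, which carries Wnt proteins to the cell surface, rose with DOX relative to 2iL (2.05 ± 0.66, adjusted p = 0.0383, edgeR), a call lost without 96 h DOX exp1_2.

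Of 16 genes for Dishevelled and the destruction complex, 1 passed without DOX relative to 2iL (against 20.4% of all genes) and 2 with DOX relative to no DOX (against 3.10%). Amer1, a partner of Apc, rose without DOX relative to 2iL by 0.98 ± 0.27 (adjusted p = 0.0122, edgeR). With DOX relative to no DOX its change was -1.13 ± 0.30 (adjusted p = 0.0402, edgeR), while Csnk1e, a casein kinase, rose by 0.94 ± 0.25 (adjusted p = 0.0458, edgeR). Neither of these calls with DOX held without 96 h DOX exp1_2. Gsk3a and Gsk3b, the kinases inhibited by CHIR99021, did not pass in any comparison (adjusted p 0.268 to 0.989, edgeR).

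Among 16 nuclear cofactors tested, 3 rose and 1 fell without DOX relative to 2iL, a share near the 20.4% of all genes. Aes, a short Groucho-family corepressor that binds TCF factors weakly, was at 76.0, 99.5 and 60.8 CPM in 96 h DOX, at 28.2, 40.8 and 25.0 CPM in 96 h without DOX and at 179, 263, 225 and 184 CPM in 2iL. The 3 groups did not overlap. Aes fell by 2.76 ± 0.27 without DOX relative to 2iL (adjusted p = 2.63e-07, edgeR), and with DOX relative to no DOX it rose by 1.31 ± 0.27 (adjusted p = 0.00768, edgeR). Bcl9, a coactivator that bridges beta-catenin to Pygopus, rose by 1.68 ± 0.42 without DOX, as did Ctbp2, a corepressor (1.06 ± 0.22), and Ctnnbip1, which blocks binding of beta-catenin to TCF (0.80 ± 0.20). Tle4, a Groucho corepressor, rose with DOX relative to no DOX by 0.84 ± 0.23 (adjusted p = 0.0466, edgeR), a call lost without 96 h DOX exp1_2.

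Cadherins hold beta-catenin at the membrane. With DOX relative to no DOX, Cdh1 (E-cadherin) was at 1577 ± 736 CPM with DOX and 4298 ± 1610 CPM without (SD, n = 3 each), with a log2 change of -1.44 ± 0.37 (adjusted p = 0.0356, edgeR). Cdh3 (P-cadherin) was at 32.1 ± 6.5 CPM with DOX and 11.0 ± 2.3 CPM without (SD, n = 3 each), a rise of 1.55 ± 0.36 (adjusted p = 0.0181, edgeR). Both calls held without 96 h DOX exp1_2.

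Of 24 other beta-catenin targets, 9 could be tested. Without DOX relative to 2iL, 1 rose and 0 fell in edgeR (against 20.4% of all genes), 3 had an unadjusted p below 0.05, and DESeq2 called 3. The gene that rose was Nkd2, a relative of Nkd1 (2.61 ± 0.63, adjusted p = 0.00494, edgeR). Without 96 h DOX exp1_2 the filter let 14 genes through, of which 1 rose and 2 fell. The 2 that fell were Cdx1 and Cdx2, which passed that filter only through 2iL of experiment 2. Of the 9, 1 rose and 3 fell with DOX relative to 2iL, against 16.7% of all genes. The call of Notum, 1 of the 3 that fell, was lost without 96 h DOX exp1_2, and Cdx1 gained a call there through the same filter. Ccnd1 (cyclin D1) was at 82.0, 75.9 and 83.0 CPM in 96 h DOX, against 292, 196 and 276 CPM in 96 h without DOX, and the groups did not overlap. It fell by 1.66 ± 0.26 on the log2 scale with DOX (adjusted p = 0.000788, edgeR), while Axin2 and Sp5 had no call in that comparison. Without DOX relative to 2iL, Ccnd1 had a change of -0.29 ± 0.24 (adjusted p = 0.462, edgeR).

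The 7 genes listed as repressed by Tcf7l1 in ES cells all fell without DOX relative to 2iL (median log2 change -3.89), where 8.90% of all genes fell. With DOX relative to no DOX 4 of the 7 rose (median 1.70), where 2.16% of all genes rose. Esrrb, Nanog and Tfcp2l1 in this list are also naive markers, and Esrrb is the gene of the construct. All 6 naive markers fell without DOX relative to 2iL, so the lists are not independent. Nr0b1, a nuclear receptor of the naive network, was at 19.2, 55.3 and 28.3 CPM in 96 h DOX, against 2.35, 1.08 and 0.588 CPM in 96 h without DOX, a rise of 4.62 ± 0.55 (adjusted p = 3.66e-05, edgeR). Jam2, a junctional adhesion molecule, rose by 4.49 ± 0.55 and Tcl1 by 1.94 ± 0.33 in the same comparison, and Tfcp2l1 by 1.70 ± 0.31. All 4 calls held without 96 h DOX exp1_2. Tcf7l1 itself passed in no comparison.

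With DOX relative to 2iL, the lists again held genes that rose and genes that fell. Sfrp2 (4.98 ± 0.68) and Rspo1 (3.05 ± 0.62) rose on the log2 scale, and Sfrp1 (-2.09 ± 0.28), Aes (-1.44 ± 0.25) and 6 of the 7 genes repressed by Tcf7l1 fell. Over all genes 6.83% fell in that comparison, and Jam2, 1 of those 6, lost its call without 96 h DOX exp1_2. Tle3, a Groucho corepressor, fell (-1.20 ± 0.28; adjusted p = 0.00447, edgeR), while Tle4 rose (1.17 ± 0.21; adjusted p = 0.000504, edgeR). Gbx2, a homeobox gene known as a beta-catenin target, was at 2.45 ± 0.29 CPM in 96 h DOX and 12.3 ± 6.3 CPM in 2iL (SD, n = 3 and 4), and Ccnd1 fell as well (-1.95 ± 0.26). Axin1, like Axin2 a scaffold of the destruction complex, fell (-1.04 ± 0.33, adjusted p = 0.0335, edgeR), a call lost without 96 h DOX exp1_2.

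Genes with a pattern like that of Axin2 or a TCF/LEF factor were ranked by the root mean square difference of mean-centred log2 CPM over the 10 libraries, among 7711 genes with a mean of at least 10 CPM. Sat1 was nearest to Axin2 (0.576, against a median of 1.46 over the candidates), followed by Eogt (0.606) and Glb1 (0.608). Celf2 was nearest to Lef1 (0.525, median 1.68), followed by Mfhas1 and Trio. Ccn2 was nearest to Tcf7 (0.293, median 0.822), Chd8 to Tcf7l1 (0.225, median 0.634) and Bcam to Tcf7l2 (0.468, median 1.03). The points of each pattern share their libraries, and the ranking says nothing of shared control.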

How the data were processed

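Reads were processed by the authors: per the submitters' processing notes they used bcl2fastq, STAR 2.6.0a and HTSeq with the mm10 build, and deposited 10 tables of counts per gene. No source used here gives the annotation release or the strand setting. Values are whole counts, as deposited; the 5 HTSeq summary lines (62.7% to 68.4% of each library) were left out. Symbols matched 30934 of 31053 IDs. Groups came from the sample titles.

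Counts were tested with edgeR 4.0.16 (R 4.3.3): filterByExpr with a minimum count of 10, TMM, a robust quasi-likelihood fit over all 10 libraries, and Benjamini-Hochberg adjustment over 11215 genes, with calls below 0.05. CPM is reads scaled to the library's reads in tested genes and its TMM factor. Experiments were compared in a fit with group, experiment and their interaction. Ratios of reads have exact 95% intervals and a count of 0 a floor of 3 reads; both cover counting error only. No source used here says whether library numbers pair samples, and the main fit did not pair them. DESeq2 1.42.0, other filters, scalings and blocks, and leaving out libraries were alternatives. The tests were checked on simulated data.

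The 10 genes and the lists were chosen with earlier results of these data known. Listed genes named are those with the largest changes among calls whose higher group averaged 10 CPM or more, up to 3 per direction, list and comparison. Gsk3a, Gsk3b, Nkd2, Wnt5a, Notum, Cdx1, Cdx2, Tlx2 and Egr1, outside that rule, were named after their values were seen. Promoters came from RefSeq on GRCm38.p6, where 10 of 10 genes matched.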

Additional observations from a re-analysis of the deposited data

How the results depend on the processing

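Of 1043 values recomputed under the alternatives, 1001 kept their direction and side of the threshold (or stayed within 1.5 times, for counts) and 0 reversed; 13 lost and 20 gained a call. Genes called with DOX against no DOX numbered 348, against 564 with no filter, 563 with DESeq2, 212 with only the compared groups and 108 in experiment 1 alone, and 161 (without 96 h without DOX exp1_1) to 358 when 1 library was left out; it was 181 without 96 h without DOX exp2_2. Experiment 1 alone called 1226 genes without DOX against 2iL and 926 with DOX against 2iL; of the 10 genes it called 3 and 2, and 0 with DOX against no DOX. It holds fewer libraries. With experiment as a replicate block, 2244, 347 and 1815 genes were called (without DOX against 2iL, DOX against no DOX, DOX against 2iL) and 4, 1 and 3 of the 10; with library number as well, 2195, 359 and 1888, and 4, 1 and 4. Same-numbered libraries of an experiment correlated at -0.0953 to 0.205 over 8 pairs, against -0.179 to 0.133 over 16 pairs from different experiments. These values compare deviations from group means of few libraries, so they cannot decide whether the numbers pair samples. T gained a call against 2iL with DOX by DESeq2 (adjusted p = 0.0367), with experiment and library number as a block (0.0458, edgeR) and without 2iL exp1_2 (0.0128, edgeR), and without DOX in a fit of only the compared groups (0.0449, edgeR) and when 2iL exp1_2 (0.00974) or exp1_1 (0.0478) was left out (edgeR); the cause was not tested. The fit of only 96 h without DOX and 2iL called 4 of the 10 genes, 3 of them shared with the fit of all libraries: Dkk1 did not pass its filter and T was gained. With no scaling beyond library size, the median change with DOX against 2iL shifted by 0.15, and 70.9% of calls were higher, against 59.0%.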
